A study of Homo sapiens with 6 samples.

Results

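The ER chaperone and unfolded protein response set comprised 37 human genes that encode the chaperones of the endoplasmic reticulum (ER) and the components and targets of the unfolded protein response. The genes were chosen by symbol as a pathway set, with earlier results of these data known. Each symbol matched 1 of the 61541 Ensembl genes in the deposited count table. They cover 4 genes of the stress sensors and XBP1, 3 chaperones of the Hsp70 and Hsp90 families, 4 genes of J proteins and SDF2L1, 8 disulfide isomerases and oxidases, 3 genes of the lectin chaperone cycle, 9 genes of ER-associated degradation, 4 genes of protein translocation and signal peptide cleavage, and 2 other ER proteins.

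The ER is where secreted and membrane proteins enter the secretory pathway, fold, receive glycans and form disulfide bonds. Hepatocytes secrete albumin, apolipoproteins and coagulation factors in large amounts and therefore carry a dense ER. When unfolded proteins accumulate, the sensors IRE1 (ERN1), PERK (EIF2AK3) and ATF6 start the unfolded protein response. IRE1 splices the XBP1 mRNA, PERK phosphorylates the translation factor eIF2 and favours translation of ATF4, and ATF6 is cut in the Golgi apparatus to release a transcription factor. Spliced XBP1 and cut ATF6 raise the transcription of chaperones, folding enzymes and degradation factors, many of them through the ER stress response element (ERSE) in the promoter.

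The samples were luciferases-expressing HepG2 cells, a line from a human hepatoblastoma. All of them carried a green luciferase (ELuc-PEST) under a TK promoter as an internal control and a red luciferase (SLR3) under antioxidant response elements (ARE), both on an artificial chromosome vector. In 3 libraries the cells were given 100 μM sedanolide, a phthalide, for 24 h, and the other 3 were labelled as controls, for which the sources used here do not say whether the solvent was added. The study asked how sedanolide changes the transcriptome, and its reporter reads the KEAP1–NRF2 pathway, so the ER genes were not the stated target of the treatment. The labels do not say whether the replicates are separate cultures, so the p-values measure only the spread between these libraries, which may be technical.

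The ERSE and related motifs are shown first, because they are the sequence that the best known targets among the 37 genes share. Promoter windows from 250 bases before to 50 bases after the transcription start were taken from RefSeq (GRCh38.p14), and 34 of the 37 genes had at least 1 window, PDIA3, DERL1 and SPCS1 having none. The letters searched on both strands were CCAAT, 9 bases of any kind and CCACG for ERSE, ATTGG, 1 base of any kind and CCACG for ERSE-II, and TGACGTGG for the unfolded protein response element (UPRE). The following lines give 7 of these promoters on the strand of the gene, 5′ to 3′, with the motifs in capitals and 20 bases on each side. They are HSPA5 and XBP1, the chaperone and the transcription factor at the centre of the response, HYOU1, which held 2 kinds of motif, and the 4 promoters with a motif whose genes had expression ranges that did not overlap between the conditions.
HSPA5: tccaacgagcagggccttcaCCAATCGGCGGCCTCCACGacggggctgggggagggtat
XBP1: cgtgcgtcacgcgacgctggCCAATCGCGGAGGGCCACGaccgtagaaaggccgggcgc
HSP90B1: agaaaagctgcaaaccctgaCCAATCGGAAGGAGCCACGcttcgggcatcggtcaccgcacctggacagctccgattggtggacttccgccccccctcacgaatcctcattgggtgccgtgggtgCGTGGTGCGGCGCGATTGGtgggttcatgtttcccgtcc
CALR: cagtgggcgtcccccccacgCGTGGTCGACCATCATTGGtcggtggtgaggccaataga
PDIA6: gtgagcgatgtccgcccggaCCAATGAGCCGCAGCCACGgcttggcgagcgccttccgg
HERPUD1: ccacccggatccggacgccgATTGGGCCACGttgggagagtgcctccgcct
HYOU1: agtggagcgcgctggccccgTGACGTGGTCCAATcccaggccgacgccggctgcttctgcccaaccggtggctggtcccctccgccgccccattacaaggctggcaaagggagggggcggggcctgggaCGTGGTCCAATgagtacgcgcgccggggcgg

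The HSPA5 sequence lies at chr9:125241371-125241429 on the minus strand, and its ERSE lies 48 to 66 bases before the transcription start. The XBP1 sequence lies at chr22:28800583-28800641 on the minus strand, with its ERSE 34 to 52 bases before the start. HSP90B1 (chr12:103930196-103930359, plus strand) had 1 ERSE in each orientation, 176 to 194 and 71 to 89 bases before the start. CALR (chr19:12938364-12938422, plus strand) had its ERSE on the opposite strand at 207 to 225 bases, and PDIA6 (chr2:10812833-10812891, minus strand) had its ERSE at 68 to 86 bases. The ERSE-II of HERPUD1 (chr16:56932005-56932055, plus strand) lay 107 to 117 bases before the start. In HYOU1 (chr11:119057254-119057413, minus strand) the UPRE at 181 to 188 bases overlapped an ERSE-II at 175 to 185 bases, and a further ERSE-II lay at 69 to 79 bases.

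ERSE was found in the windows of 8 of the 34 genes (23.5%), namely CALR, CANX, CRELD2, ERO1B, HSP90B1, HSPA5, PDIA6 and XBP1, against 25 of the 27305 genes with a RefSeq window (0.0916%). ERSE-II was found in 3 (8.82%), HERPUD1, HYOU1 and SDF2L1, against 19 of all genes (0.0696%). UPRE was found in HYOU1 alone (2.94%), against 253 of all genes (0.927%). At least 1 of the 3 motifs was thus present in 11 of the 34 genes (32.4%) and in 295 of all genes (1.08%). Genes and motifs were both chosen as parts of the unfolded protein response, so these shares are a description and not a test. A match describes the letters of the window and is not a binding site, and for the other 23 genes it says only that these exact letters are not in the window.

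The libraries held 16420258 to 26714853 expected counts, and the 37 genes took 1.09% to 1.49% of the counts of a library. Most hepatocyte genes examined were abundant, with ALB at 785 to 1286 and APOB at 6337 to 14570 CPM (counts scaled to the same library size). TTR was the lowest of them, at 23.8 to 40.5 CPM. In contrast, PTPRC, COL1A1 and COL1A2 had at most 3 counts in any library. PECAM1, an endothelial marker, had 71 to 137 counts (3.79 to 5.13 CPM) in each of the 6 libraries. As a check of the labels, NQO1, an NRF2 target, rose from 290 ± 31.0 to 670.3 ± 46.4 normalized CPM (SD, n = 3 each; log2 fold change 1.21, adjusted p = 0.0172, edgeR). Here and below, the test is the quasi-likelihood test of edgeR, with p adjusted by Benjamini and Hochberg over all features, and values of single libraries are listed in the order of replicates 1, 2 and 3. The SLR3 reporter also rose (log2 fold change 2.02, adjusted p = 0.00324, edgeR). The internal control ELuc-PEST was at 18.6 ± 0.121 and 10.4 ± 2.43 CPM (SD, n = 3 each), without overlap, a difference of −0.84 that did not pass the test (unadjusted p = 0.00223, adjusted p = 0.131, edgeR). The first principal component of log2 CPM took 56.1% of the variance and did not follow the treatment. It placed control 1, control 2 and sedanolide 3 on its positive side and control 3, sedanolide 1 and sedanolide 2 on its negative side. The mitochondrial share of counts followed the same split, at 1.43% to 2.15% on the positive side and 4.23% to 5.22% on the negative side. Its part in the results was not tested, and for each of the 37 genes that followed the split the difference within the sides is also given.

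All but 1 of the 37 genes were present in the deposited table of log2(TPM + 1), where TPM, which also divide by transcript length, allow levels to be compared between genes. The exception was ERO1B, an oxidase that had 6.13 to 11.7 CPM in the count table. In the control libraries, P4HB, the beta subunit of prolyl 4-hydroxylase and the main protein disulfide isomerase, was highest at 1364 ± 273 TPM (SD, n = 3). CALR (calreticulin) followed at 1070 ± 53.2 TPM and CANX (calnexin) at 754 ± 178 TPM. HSP90B1 (GRP94), XBP1, PDIA6, PDIA3 and HSPA5 (BiP) lay between 569 and 682 TPM. The lowest levels were those of EDEM1 at 13.7 ± 2.64, EDEM3 at 11.8 ± 5.04 and ERN1 at 6.42 ± 1.14 TPM, and the span from P4HB to ERN1 was 213-fold.

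In this order of 36 control means, 28 of the 35 pairs of neighbours had overlapping ranges over the 3 control libraries, so most neighbouring ranks were not separated. The ranges did not overlap between CALR and CANX, HSPA5 and SEC61A1, SEC61A1 and SSR1, SDF2L1 and DNAJB11, DNAJB11 and WFS1, SELENOS and DERL2, or EDEM3 and ERN1. The upper end of the order was thus held by soluble and membrane chaperones, isomerases and XBP1. The sensors ATF6, EIF2AK3 and ERN1 were among the 7 lowest, at 26.8 ± 2.20, 18.4 ± 5.89 and 6.42 ± 1.14 TPM.

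**Figure D1:**
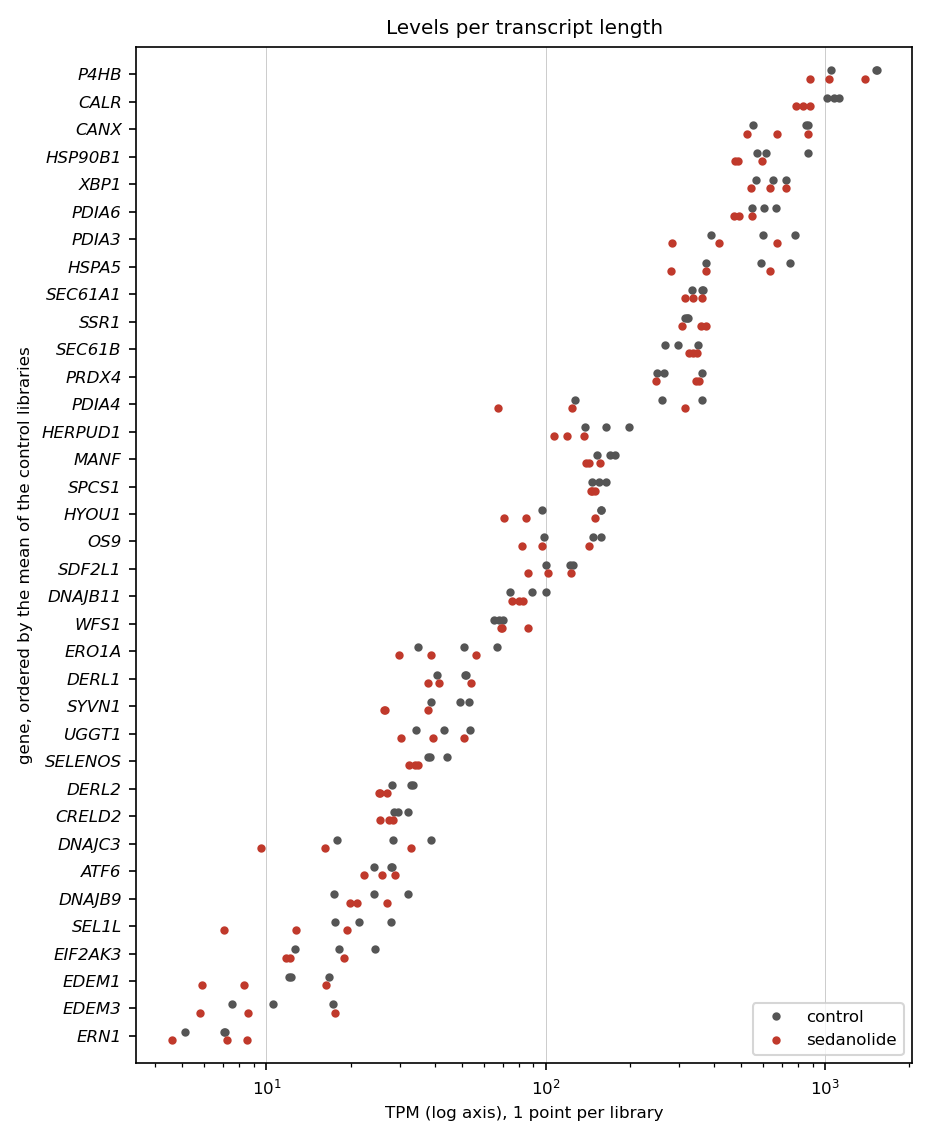
TPM of 36 genes (log axis) in the 3 control and 3 sedanolide libraries, 1 point per library, ordered by the control mean from P4HB (1364 TPM) to ERN1 (6.42 TPM). The points of the 2 conditions overlap for most genes, and the sedanolide points of PDIA4 range from 67.4 to 315 TPM.

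None of the 37 genes passed the test for a change with sedanolide. All 37 passed the filter on low counts, and 0 of 37 were called by edgeR (adjusted p under 0.05 together with a change of 1.5-fold or more), against 0.674% of the 14104 features tested. The lowest adjusted p was 0.296 (HERPUD1). At an unadjusted p under 0.05 there were 2 of 37, HERPUD1 and SYVN1, both lower with sedanolide. This was a smaller share than the 11.9% of all features in either direction. Of the 14104 features, 927 were lower at that threshold. DESeq2 also called 0 of 37, against 2.33% of all features, and left 5 at an unadjusted p under 0.05, against 12.4% (CALR, HERPUD1, SEL1L and SYVN1 lower, WFS1 higher). The log2 TPM table with limma called 0 of 36, against 0.554%. It left 3 at an unadjusted p under 0.05 (CALR, HERPUD1 and SYVN1, all lower). Over its 11006 rows the share was 11.5% in either direction, with 911 lower. The count at an unadjusted p under 0.05 depended on single libraries. It was 0 of 37 without sedanolide 2 (6.27% of all features in either direction). Without sedanolide 3 it was 10 of 37, all lower, against 1719 lower of 14128 features (23.0% in either direction).

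The fitted log2 fold changes lay between −0.70 (SEL1L) and 0.25 (WFS1). They were negative for 28 genes and positive for 9, with a median of −0.15, whereas over all features 6949 of 14104 were negative and the median was 0.0057. The ranges of the 2 conditions did not overlap for 5 genes that were lower (HSP90B1, PDIA6, CALR, HERPUD1 and SELENOS) and 3 that were higher (SEC61B, SSR1 and WFS1), against 9.66% and 8.69% of all features. In TPM the conditions overlapped for HSP90B1, SEC61B, SSR1 and WFS1, and the genes without overlap were 7 lower (CALR, PDIA6, HERPUD1, SYVN1, SELENOS, DERL2 and CRELD2) and 0 higher, against 11.3% and 5.90% of the rows of that table. For 18 of the 37 genes the 95% interval lay within a 1.5-fold change in either direction, against 39.4% of all features. For the other 19 the interval reached beyond 1.5-fold on at least 1 side.

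**Figure D2:**
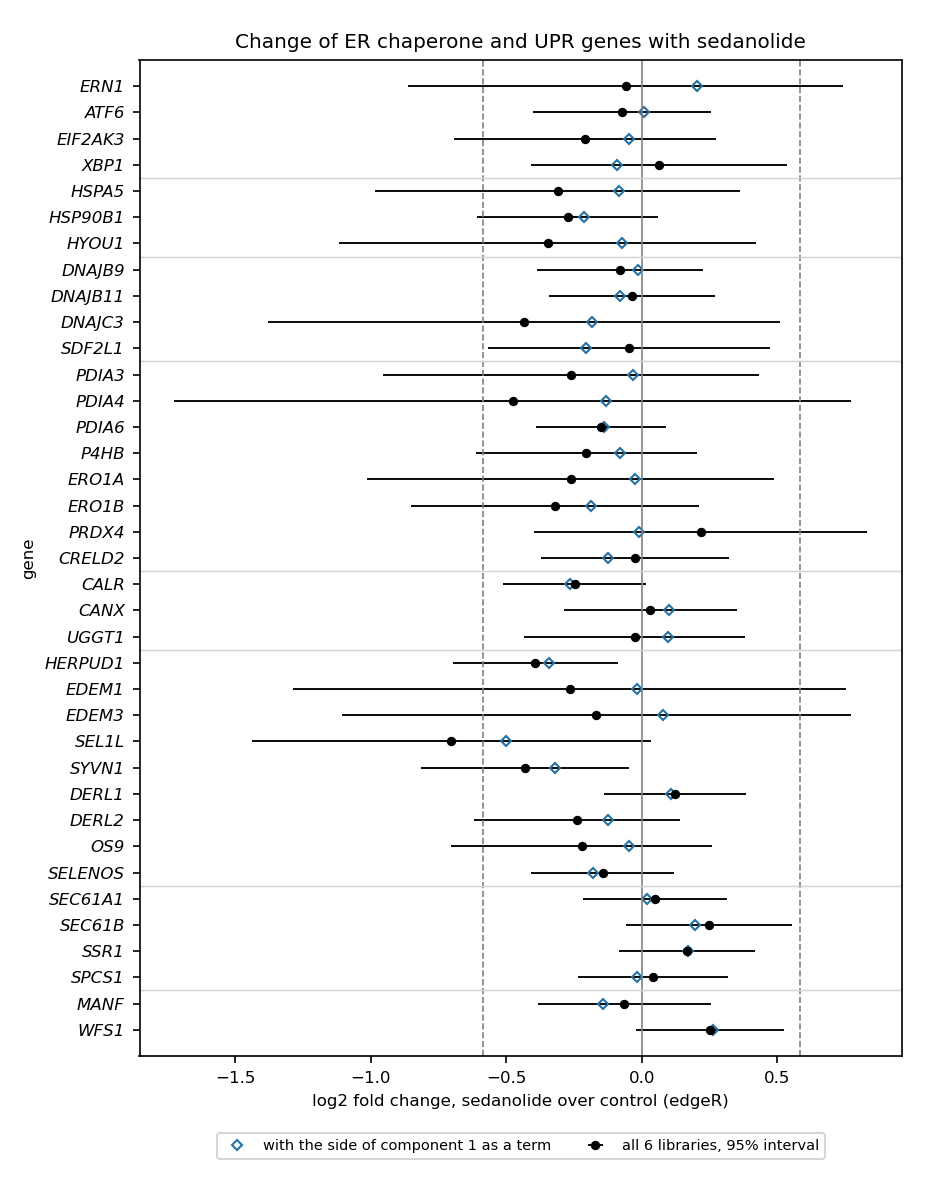
Log2 fold change of the 37 genes, sedanolide over control, from edgeR with all 6 libraries (black points, bars are 95% intervals) and with a term for the side on component 1 (blue diamonds). Dashed lines mark a 1.5-fold change, and the values range from −0.70 (SEL1L) to 0.25 (WFS1), with 28 of the 37 black points below 0.

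The spread of many of these genes followed the split between the libraries rather than the treatment. In 18 of the 37 genes the 3 libraries of the positive side all lay above the 3 of the negative side, against 21.0% of all features. The reverse order was seen in 4 genes, XBP1, PRDX4, CRELD2 and SPCS1, against 23.1%. The component was computed from the same libraries, so these counts are a description only. The median log2 CPM of the 37 genes, relative to the mean of the controls, was 0.023, 0.13 and −0.18 in the controls and −0.29, −0.21 and 0.065 with sedanolide. The same median over all features stayed between −0.0027 and 0.014. The highest values were thus in control 2, sedanolide 3 and control 1, and the lowest in sedanolide 1.

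Within the sides the median differences over the 37 genes were smaller in size, which did not hold for every single gene. On the positive side, the difference of sedanolide 3 from controls 1 and 2 on the log2 scale had a median of −0.053 over the 37 genes. On the negative side, the difference of sedanolide 1 and 2 from control 3 had a median of −0.074. The same medians over all features were 0.0034 and 0.011. The difference was negative on both sides for 18 genes and positive on both for 7, and it changed sign between the sides for the remaining 12. With the side as a term in edgeR, chosen after seeing the data, 0 of 37 genes were called, against 2.70% of all features, and the lowest adjusted p was 0.0863 (SYVN1). At an unadjusted p under 0.05 this fit left 5 of 37, against 19.5%, of which CALR, HERPUD1, SEL1L and SYVN1 were lower and WFS1 was higher.

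**Figure D3:**
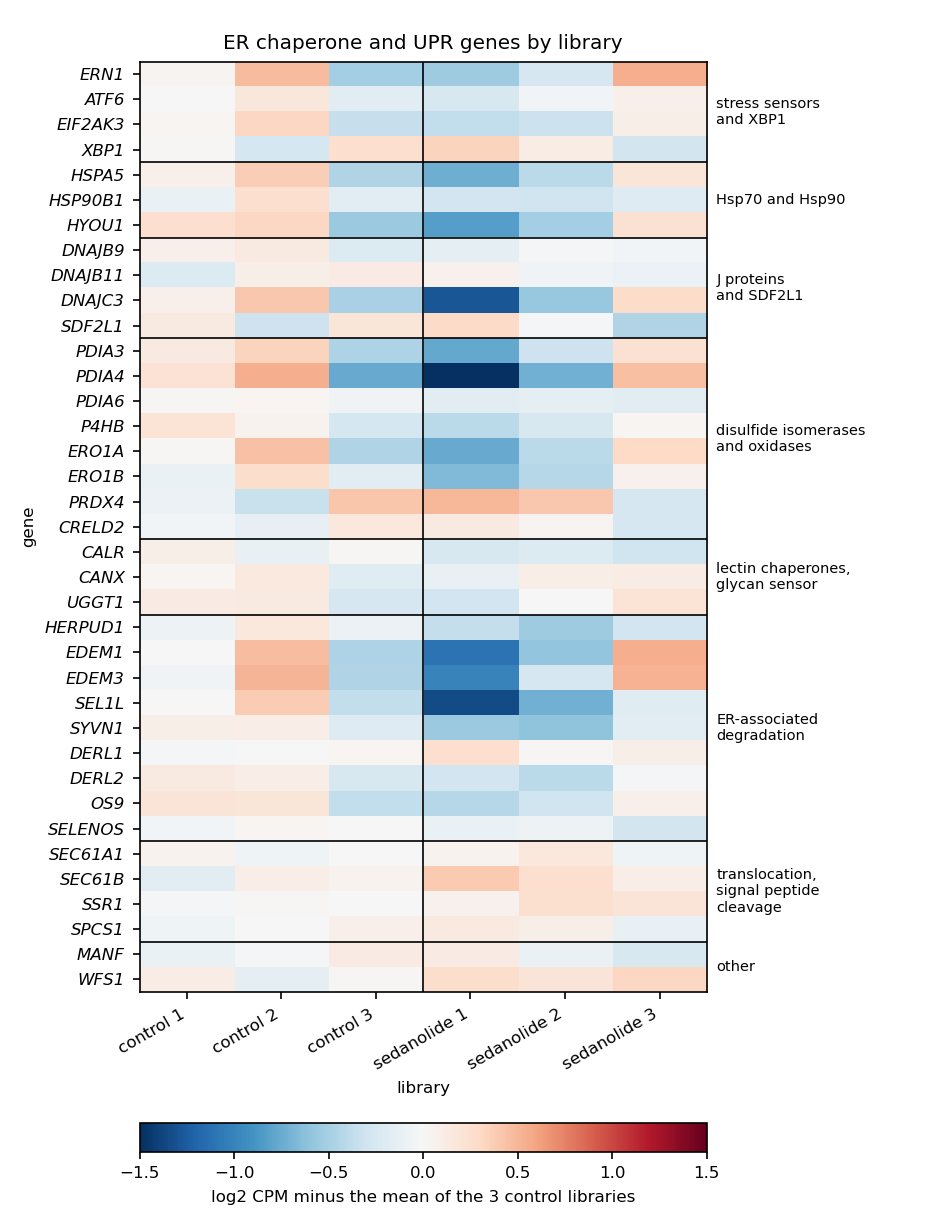
Log2 CPM of each of the 37 genes in each library minus the mean of the 3 controls, ordered by role (blue below, red above). Control 3, sedanolide 1 and sedanolide 2 are blue for most chaperones, oxidases and degradation genes, while XBP1 and PRDX4 are red in the same libraries.

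The sensors and XBP1 had a median log2 fold change of −0.066. ERN1, the kinase and endoribonuclease IRE1, was at 19.9, 27.0 and 13.6 CPM in the controls and 13.4, 16.3 and 28.3 with sedanolide (chr17:64039080-64130819, minus strand). The positive side was 1.71-fold above the negative side, and the fitted difference between the conditions was −0.060, with an interval of −0.86 to 0.74. Within the sides it had the opposite sign, 0.27 and 0.12. ATF6 (−0.072) and the kinase EIF2AK3 (−0.21) showed the same order of libraries, with 1.17-fold and 1.40-fold between the sides. Within the sides ATF6 differed by −0.0096 and 0.023 and EIF2AK3 by −0.088 and 0.0023.

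XBP1, the transcription factor whose mRNA IRE1 splices, went the other way between the libraries. It had 703, 579 and 827 CPM in the controls and 880.5, 750.5 and 574 with sedanolide, so that the conditions overlapped fully and the lowest values were those of control 2 and sedanolide 3. Its means were 703 ± 124 and 735 ± 154 CPM (SD, n = 3 each), and the log2 fold change was 0.064, with an interval of −0.41 to 0.53 (adjusted p = 0.922, edgeR). Within the sides the difference was −0.16 and −0.021. XBP1 lies at chr22:28794555-28800597 on the minus strand. Gene counts add the spliced and unspliced forms together, so these values do not measure splicing.

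The 3 Hsp70 and Hsp90 chaperones all had negative differences, with a median of −0.31. HSPA5, the ER Hsp70 BiP that binds unfolded chains and holds the sensors inactive, lies at chr9:125234853-125241382 on the minus strand. It was at 1076, 1312 and 747 CPM in the controls and 612, 766 and 1151 with sedanolide. The value of sedanolide 3 lay among the controls and that of control 3 lay among the sedanolide libraries. The means were 1045 ± 284 and 843 ± 278 CPM (SD, n = 3 each), and the log2 fold change was −0.31, with an interval of −0.98 to 0.36 (adjusted p = 0.706, edgeR). Within the sides it was −0.053 and −0.12, while the positive side was 1.66-fold above the negative side.

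HYOU1, the large Hsp70-like protein that serves as a nucleotide exchange factor of BiP, had the same pattern, with 354, 368 and 202 CPM in the controls and 168, 210.0 and 348 with sedanolide. Its log2 fold change was −0.35 over all libraries and −0.053 and −0.095 within the sides. HSP90B1, the ER Hsp90 GRP94, was at 1148, 1468 and 1108 CPM in the controls and 1006, 997 and 1078 with sedanolide. All its sedanolide values were below all its controls, and the difference was −0.27 over all libraries and −0.28 and −0.15 within the sides (adjusted p = 0.502, edgeR).

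The J proteins deliver substrates to BiP and start its ATP hydrolysis, and SDF2L1 forms a complex with DNAJB11. DNAJC3 (p58IPK), which also inhibits PERK, was among the 3 genes with the most negative difference. It had 109, 137 and 73.3 CPM in the controls and 42.2, 69.2 and 124 with sedanolide. The conditions overlapped, with sedanolide 3 above controls 1 and 3 and sedanolide 1 lowest of all. The log2 fold change was −0.44, with an interval of −1.38 to 0.51 (adjusted p = 0.705, edgeR), and it was 0.018 and −0.39 within the sides. DNAJC3 lies at chr13:95677139-95794988 on the plus strand. DNAJB9 (−0.079), DNAJB11 (−0.036) and SDF2L1 (−0.047) had intervals within a 1.5-fold change, and the ranges of their conditions overlapped. DNAJB11 shares 381 exon bases with TBCCD1 on the opposite strand, which had 16.9% as many counts. It also shares 451 with the protein-coding ENSG00000283149 on the same strand, which had 6.28%.

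The disulfide isomerases form and rearrange disulfide bonds in client proteins, and ERO1A and ERO1B pass the electrons on to oxygen. Over the 8 genes of this group the median log2 fold change was −0.23, with 7 negative values. PDIA4 (ERp72), at chr7:149003062-149028662 on the minus strand, varied most between the sides. Its values were 483, 609 and 246 CPM in the controls and 141, 253 and 568 with sedanolide. Sedanolide 3 was higher than controls 1 and 3, and the positive side was 2.59-fold above the negative side, which exceeds the difference between the conditions. The means were 446 ± 184 and 321 ± 221 CPM (SD, n = 3 each), with a log2 fold change of −0.48 and an interval of −1.73 to 0.77 (adjusted p = 0.756, edgeR). Within the sides it was 0.056 and −0.32.

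PDIA3 (ERp57), which works with calnexin and calreticulin on glycoproteins, had 689, 792 and 459 CPM in the controls and 371, 508 and 739.6 with sedanolide. Its difference was −0.26 over all libraries and −0.0015 and −0.061 within the sides. P4HB (−0.20), ERO1A (−0.26) and ERO1B (−0.32) also had all libraries of the positive side above those of the negative side. Within the sides the differences were −0.10 and −0.057 for P4HB, 0.056 and −0.11 for ERO1A, and −0.032 and −0.34 for ERO1B. PDIA6 differed from them in that the libraries of each condition lay close together. It was at 898, 899 and 854 CPM in the controls and 794, 805 and 791 with sedanolide, so that the conditions did not overlap, and its log2 fold change of −0.15 had an interval of −0.39 to 0.090. That interval lies within a 1.5-fold change.

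PRDX4, the ER peroxiredoxin that uses hydrogen peroxide to make disulfides, had one of the 3 largest positive values. It was at 141, 119 and 200.1 CPM in the controls and 211, 198 and 125 with sedanolide (chrX:23664262-23686397, plus strand). Control 3 was as high as sedanolide 1 and 2, and sedanolide 3 was as low as controls 1 and 2. The means were 153 ± 42.0 and 178 ± 46.3 CPM (SD, n = 3 each), and the log2 fold change was 0.22, with an interval of −0.40 to 0.83 (adjusted p = 0.774, edgeR). Within the sides it was −0.051 and 0.033. CRELD2, an ER-stress-inducible protein, had a difference of −0.025 over all libraries and −0.17 and −0.074 within the sides. It shares 168 exon bases with ALG12 on the opposite strand, which had 88.1% as many counts.

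In the lectin chaperone cycle, CALR and CANX bind monoglucosylated glycans and UGGT1 puts the glucose back on proteins that are not yet folded. The 3 genes differed. CALR, described here after its values were seen, was at 1347, 1171 and 1284 CPM in the controls and 1074, 1097 and 1031 with sedanolide, with no overlap. Its mean was 1267 ± 88.9 CPM in the controls and 1067 ± 33.7 with sedanolide (SD, n = 3 each). The log2 fold change was −0.25, with an interval of −0.51 to 0.017, and it was −0.29 and −0.24 within the sides. It did not pass the test (adjusted p = 0.441 in edgeR, 0.244 in DESeq2 and 0.168 in edgeR with the side as a term). CANX (0.032) and UGGT1 (−0.026) had overlapping conditions and intervals within a 1.5-fold change. For UGGT1, which was higher on the positive side, the differences within the sides were 0.084 and 0.11. In the log2 TPM table CANX had the opposite sign, −0.13.

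**Figure D4:**
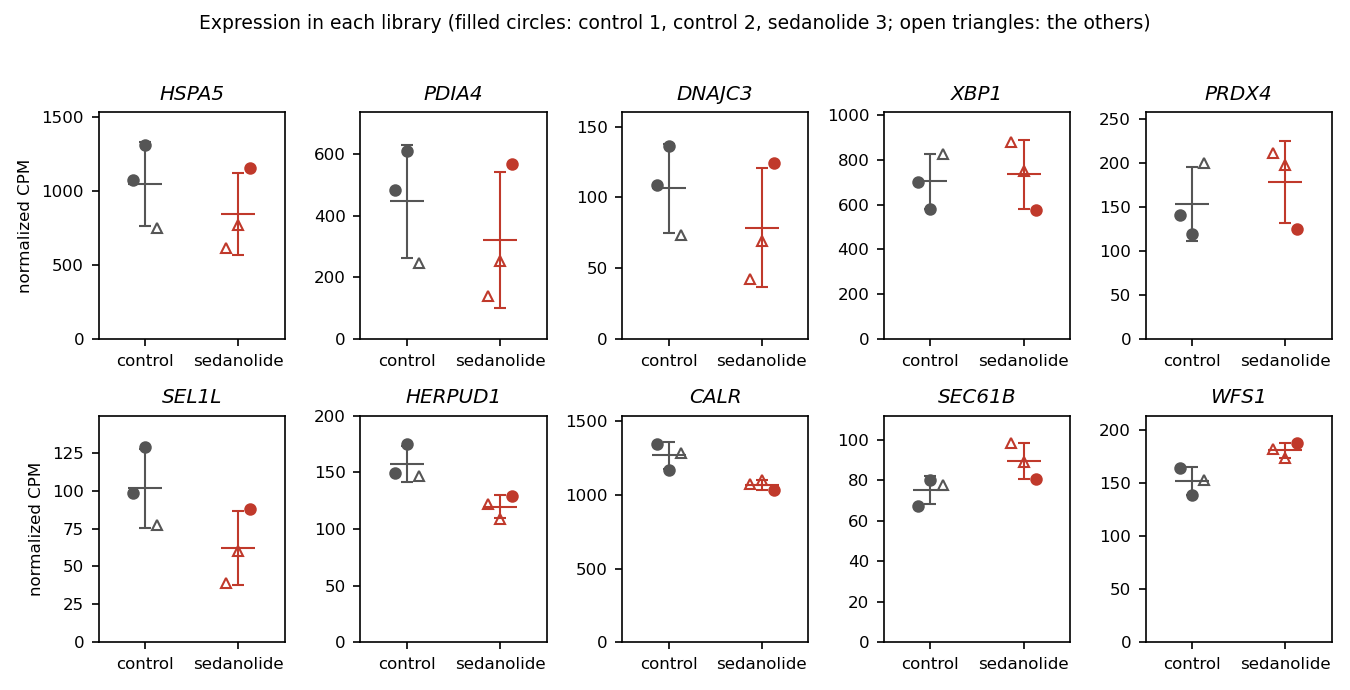
Normalized CPM of 10 genes in each library, with the mean and SD of each condition (n = 3; axes start at 0). Filled circles are control 1, control 2 and sedanolide 3, and open triangles are the other libraries: for HSPA5, PDIA4 and DNAJC3 the circles lie above the triangles in both conditions, for XBP1 and PRDX4 below them, and for HERPUD1, CALR, SEC61B and WFS1 the conditions do not overlap.

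The genes of ER-associated degradation recognise misfolded proteins and return them to the cytosol for the proteasome. In the edgeR fit of all 6 libraries with condition as the only term, they had the only unadjusted p under 0.05 among the 37 genes. Of the 9 genes 8 had a negative difference, with a median of −0.24. SEL1L, the adaptor of the HRD1 ligase, had the most negative value of all 37. It lies at chr14:81471547-81533853 on the minus strand and was at 98.6, 129 and 77.0 CPM in the controls and 39.1, 60.3 and 87.6 with sedanolide. Only sedanolide 3 overlapped with the controls, being above control 3. The means were 101 ± 26.0 and 62.3 ± 24.3 CPM (SD, n = 3 each). The log2 fold change was −0.70, with an interval of −1.44 to 0.035 (adjusted p = 0.436, edgeR). Within the sides it was −0.38 and −0.63. Leaving out single libraries gave −0.46 (without sedanolide 1) to −1.03 (without sedanolide 3), and with the side as a term it was −0.50 (adjusted p = 0.149, edgeR).

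SYVN1, the HRD1 ubiquitin ligase itself, and HERPUD1, which helps to assemble the HRD1 complex, are described here after their values were seen. SYVN1 was at 85.7, 86.1 and 70.4 CPM in the controls and 54.7, 52.7 and 72.3 with sedanolide, with sedanolide 3 just above control 3. Its log2 fold change was −0.43, with an interval of −0.81 to −0.047 (unadjusted p = 0.0327, adjusted p = 0.364, edgeR), and within the sides it was −0.25 and −0.39. SYVN1 (chr11:65121780-65134532, minus strand) shares 130 exon bases with FAU on the same strand, which had 373% of its counts, and 356 with MRPL49 on the opposite strand, which had 48.9%. How reads in shared bases were divided was not tested, so its value is uncertain.

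HERPUD1 (chr16:56932142-56944864, plus strand) was at 149, 175 and 147 CPM in the controls and 122, 109 and 129 with sedanolide. All sedanolide values were below all controls. The means were 157 ± 15.8 and 119.8 ± 10.3 CPM (SD, n = 3 each), and the log2 fold change was −0.39, with an interval of −0.70 to −0.088. It was −0.33 and −0.35 within the sides. The unadjusted p was 0.0185 and the adjusted p 0.296 (edgeR). The adjusted p was 0.148 in DESeq2 and 0.101 in edgeR with the side as a term.

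The mannosidase-like proteins EDEM1 and EDEM3, which mark glycoproteins for degradation, varied with the sides. EDEM1 was at 41.0, 56.7 and 29.7 CPM in the controls and 19.0, 27.2 and 59.7 with sedanolide, and its difference was 0.29 on the positive side and −0.36 on the negative side. EDEM3 had 48.2, 71.2 and 36.7 CPM in the controls and 25.1, 42.0 and 72.0 with sedanolide. Within the sides EDEM3 differed by 0.27 and −0.13. Both thus had their highest value in sedanolide 3 and their lowest in sedanolide 1. OS9 (−0.22), a lectin of the same route, and DERL2 (−0.24), a component of the retrotranslocation channel, also had the positive side above the negative side. Within the sides OS9 differed by −0.11 and 0.014 and DERL2 by −0.14 and −0.099. DERL2 shares 301 exon bases with MIS12 on the opposite strand, which had 79.5% as many counts. DERL1 (0.12, but −0.12 in the log2 TPM table) was the only gene of the group with a positive value. SELENOS, a selenoprotein that recruits the ATPase p97, was at 28.2, 29.5 and 29.0 CPM in the controls and 27.0, 27.5 and 23.9 with sedanolide, without overlap, and its log2 fold change was −0.14 (interval −0.41 to 0.12).

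Protein translocation was the only group in which all 4 fitted values were positive, although none passed the test and those of SEC61A1 and SPCS1 turned negative in the log2 TPM table. The median over its 4 genes was 0.11, and all 4 intervals lay within a 1.5-fold change. SEC61B, the beta subunit of the translocation channel, was at 67.3, 80.3 and 77.8 CPM in the controls and 98.4, 89.1 and 80.5 with sedanolide (chr9:99222064-99230615, plus strand). The lowest sedanolide value was just above the highest control. The means were 75.2 ± 6.92 and 89.3 ± 8.94 CPM (SD, n = 3 each), with a log2 fold change of 0.25 and an interval of −0.057 to 0.55 (adjusted p = 0.503, edgeR). It was 0.12 and 0.27 within the sides.

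SSR1, a subunit of the translocon-associated protein complex, was at 529, 543 and 536 CPM in the controls and 559, 633 and 611 with sedanolide. The conditions did not overlap, and its difference was 0.17 over all libraries and 0.19 and 0.15 within the sides. SEC61A1 (0.049), the pore of the channel, and SPCS1 (0.041), a subunit of the signal peptidase, had overlapping conditions. In the log2 TPM table they were −0.066 and −0.074. The difference of SPCS1 within the sides was −0.080 and 0.042. SPCS1 shares 2705 exon bases with NEK4, which had 42.0% as many counts, and 192 with GLT8D1, which had 55.2%, both on the opposite strand. DERL1 shares 333 with TBC1D31 (14.1% as many counts) and SEC61A1 shares 622 with RUVBL1 (8.90%), also on the opposite strand. The strand setting of the counting is not given in the sources used here. How reads in the exon bases that SPCS1, CRELD2, DERL2, DNAJB11, DERL1 and SEC61A1 share with other genes were assigned was not tested. The values of these genes are uncertain too.

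The remaining genes were MANF, a secreted ER stress protein that binds BiP, and WFS1 (wolframin), an ER membrane protein involved in calcium handling. MANF was at 76.2, 80.1 and 89.1 CPM in the controls and 89.2, 76.4 and 69.1 with sedanolide, a difference of −0.064. WFS1 had the most positive value of the 37 genes and lies at chr4:6269849-6303265 on the plus strand. It was at 164, 138 and 153 CPM in the controls and 181, 173 and 187 with sedanolide. All sedanolide values were above all controls. The means were 152 ± 12.97 and 181 ± 7.12 CPM (SD, n = 3 each), and the log2 fold change was 0.25, with an interval of −0.020 to 0.53 (adjusted p = 0.448, edgeR). Within the sides it was 0.31 and 0.21, and with the side as a term the adjusted p was 0.178.

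The genes with and without a motif in the promoter can be set side by side. The 11 genes with ERSE, ERSE-II or UPRE had a median log2 fold change of −0.25 (−0.39 to 0.064), with 9 negative values. The 23 genes with a window and no motif had a median of −0.14 (−0.70 to 0.25), with 18 negative values. In 4 of the 11 with a motif the conditions did not overlap, all lower with sedanolide (HSP90B1, PDIA6, CALR and HERPUD1). In 4 of the 23 without a motif they did not overlap, SELENOS lower and SEC61B, SSR1 and WFS1 higher. Over all features the shares were 9.66% lower and 8.69% higher. All libraries of the positive side were higher in 3 of the 11 and in 14 of the 23, against 21.0% of all features. No test was made between the sets.

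Of 96 further genes of the same processes, 94 passed the filter on low counts, DERL3 and CHAC1 being too low. Of the 94 genes edgeR called 0, against 0.674% of all features. Their log2 fold changes were positive for 56 and negative for 38, with a median of 0.043. At an unadjusted p under 0.05 there were 6 of 94, a smaller share than the 11.9% of all features. Of these, 4 were higher (ASNS, GDF15, UFD1 and EIF2S1) and 2 lower (NUPR1 and SESN2), named after their values were seen. The 24 further folding and glycan genes had a median of 0.029, with FKBP2, a prolyl isomerase, farthest from 0 at 0.28. The 18 genes of translocation and N-glycosylation had a median of 0.094, with DDOST, an oligosaccharyltransferase subunit, farthest at −0.19. The 12 genes of ER export and KDEL retrieval had a median of 0.0051, with SEC31A, a COPII coat protein, farthest at 0.19. All libraries of the negative side were above those of the positive side for FKBP2 and SEC31A, and below them for DDOST. Within the sides FKBP2 differed by −0.28 and 0.0067, DDOST by −0.021 and −0.076, and SEC31A by −0.016 and 0.073.

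Among the 14 further degradation genes tested, 12 had positive values and the median was 0.12. AUP1, a lipid droplet and ER protein of this pathway, was farthest from 0 at 0.42. Its libraries of the negative side were all above those of the positive side, and within the sides it differed by 0.17 and 0.43. The 13 genes of signalling and processing had a median of −0.033. EIF2S1, the alpha subunit of eIF2 that PERK phosphorylates, was farthest at 0.43 (adjusted p = 0.304, edgeR). In these groups no gene passed the test.

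The ATF4 and CHOP arm was the list with the widest range, from −1.15 to 0.87 over 13 genes, with 9 positive values and a median of 0.16. NUPR1, a stress-induced chromatin protein, was farthest from 0. It was at 19.0, 21.4 and 14.1 CPM in the controls and 5.97, 7.18 and 11.3 with sedanolide, with no overlap (log2 fold change −1.15, adjusted p = 0.159, edgeR). DESeq2 called it (adjusted p = 0.00895), as did edgeR with the side as a term (adjusted p = 0.00469). ASNS, the asparagine synthetase that ATF4 induces, differed by 0.87 on the log2 scale. Its adjusted p was 0.358 in edgeR, 0.151 in DESeq2 and 0.0459 in edgeR with the side as a term. Its conditions overlapped (control 3 at 82.1, sedanolide 3 at 71.0 CPM), and all libraries of the negative side were above those of the positive side. GDF15, described after its values were seen, differed by 0.51 without overlap. Its adjusted p was 0.186 in edgeR, 0.0257 in DESeq2 and 0.0160 in edgeR with the side as a term, with a change under 1.5-fold in each. Within the sides NUPR1 differed by −0.81 and −1.05, ASNS by 0.57 and 0.62, and GDF15 by 0.61 and 0.51. DDIT3, which encodes CHOP, was at 4.36, 5.97 and 4.69 CPM in the controls and 3.39, 3.36 and 5.59 with sedanolide, and its log2 fold change was −0.28. In whole-culture RNA, a change in the number of cells of a kind cannot be told apart from a change of RNA per cell.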

How the data were processed

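Luciferases-expressing HepG2 cells were sequenced by the authors as directional mRNA libraries with 150 bp paired-end reads. Per the labels and the methods, reads were checked with FastQC, trimmed with Trimmomatic, aligned to GRCh38 with STAR and quantified with RSEM, whose versions, annotation and strand setting are not given in the sources used here. The authors deposited expected counts per gene without normalization and a log2(TPM + 1) table of 11006 rows.

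Expected counts were rounded and analysed in R 4.3.3 with edgeR 4.0.16: filterByExpr, TMM, robust quasi-likelihood fit, condition as the only term, and Benjamini-Hochberg adjustment over 14104 features. A gene counted as called with an adjusted p under 0.05 and a change of 1.5-fold or more. The biological coefficient of variation was 0.199. DESeq2 1.42.0, the authors' tool, other scalings and filters, single libraries left out, a replicate block and limma 3.58.1 on the log2 TPM values were alternatives. Within-side differences are of log2(CPM + 0.5). Libraries were no duplicates, their counts differing beyond sampling noise (chi-square per degree of freedom 20.9 to 149). Positions and exon overlaps are from GENCODE 44, in which 61369 of 61541 identifiers were found. Fitting was tested on simulated counts with the same dispersion for all genes and no split between libraries. Such counts cannot show how the fit behaves under the split seen here.

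The 37 genes, the lists and the tests were chosen with earlier results of these data known. By rule, the 3 largest positive and 3 largest negative changes, HSPA5, XBP1, any called gene and, of each further list, the gene farthest from 0 were described in detail.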

Additional observations from a re-analysis of the deposited data

How the results depend on the processing

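In none of the 15 alternative fits was a gene of the 37 past an FDR of 0.05, and their median log2 fold change stayed between −0.24 and −0.074. Over all features the 95 calls became 328 with DESeq2, 158 with all genes of at least 1 count, 61 with the log2 TPM table, 381 with the side as a term and 0 to 136 with single libraries left out, 0 without control 1 or sedanolide 2. Of the 96 further genes 0 were called, against 1 with DESeq2, 2 with the side as a term and 0 to 1 with single libraries left out (NUPR1, without sedanolide 3). The same-numbered libraries did not deviate together (correlations −0.13, −0.30 and −0.73), and with the replicate block 0 features were called, 772 having an unadjusted p under 0.05, of which 0 were among the 37. The cause of these changes was not tested.

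Of the 37 log2 fold changes, 22 kept their sign in every fit. The sign turned with the side as a term for ERN1 (0.20), ATF6 (0.0066), XBP1 (−0.090), PRDX4 (−0.0087), UGGT1 (0.096), EDEM3 (0.078) and SPCS1 (−0.019). It turned in the log2 TPM table, at pseudocounts of 1 and 0.1, for ERN1 (0.048 and 0.050), XBP1 (−0.034 and −0.034), CANX (−0.13 and −0.13), DERL1 (−0.12 and −0.12), SEC61A1 (−0.066 and −0.066) and SPCS1 (−0.074 and −0.075). With library size only it turned for CANX (−0.012) and SPCS1 (−0.0033). With single libraries left out the values ranged from −0.44 to 0.21 for ERN1, −0.15 to 0.017 for ATF6, −0.089 to 0.21 for XBP1, −0.15 to 0.024 for DNAJB11, −0.24 to 0.13 for SDF2L1, −0.11 to 0.081 for CRELD2, −0.051 to 0.11 for CANX, −0.15 to 0.090 for UGGT1, −0.87 to 0.028 for EDEM1, −0.63 to 0.13 for EDEM3, −0.015 to 0.10 for SEC61A1, −0.013 to 0.12 for SPCS1 and −0.17 to 0.018 for MANF. The median of all features moved by 0.043 with library size only and by 0.080 and 0.084 in the log2 TPM table, and by at most 0.012 in the other fits.

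With 3 libraries per condition, the 95% interval reached beyond a 1.5-fold change for 19 of the 37 genes.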
